A study of Mus musculus with 11 samples.

Results

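The mouse genes for retinoid-binding proteins described here are Rbp7, Rbp2, Rbp3, Rbp4, Crabp1 and Crabp2, 6 of the 37273 genes on chromosomes 1 to 19, X and Y of the GENCODE vM1 annotation of mm9. Rbp7 was selected on its values, because the HA-Macro signal at its transcription start site (TSS) in ES cells was higher after 12 than after 3 hours of Dox. The study shows Rbp7 as an example of a slowly labelled gene. The other 5 genes were selected as relatives of Rbp7 by name and function, not by signal. The comparison of 12 with 3 hours in ES cells is therefore a description for Rbp7, and the question asked of the other 5, and of the 9 genes whose TSS lies within 20 kb of the 6, is whether they share it.

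The data are 11 ChIP-Seq libraries, 1 per condition, from a pulse-chase design in which HA-tagged histone variants were induced with doxycycline (Dox) and followed over time. All HA libraries came from KH2 ES cells of a 129 X C57bl/6 background or from MEFs derived from them. These cells carry the M2rtTA transactivator at ROSA26 and a tetracycline-inducible HA-tagged histone at Col1a1. HA-Macro is the tagged MacroH2A2 variant, and HA-H3.3 the tagged H3.3 variant. Anti-HA ChIP of HA-Macro ES cells was done without Dox, which gives the signal of the antibody and of any uninduced expression, and with Dox (2 μg/ml) for 3, 6 or 12 hours. The condition without Dox was taken from the label, although the name of the deposited file does not state it and reads as if Dox had been added. HA-Macro MEFs were sampled at the same 3 times, and HA-H3.3 ES cells at 3 and 6 hours. The MEFs were isolated from chimeric embryos and selected with puromycin to remove host cells, and the ES cells were plated briefly to deplete the feeder layer, so that a residue of other cells in either is possible. Total MacroH2A2 was mapped with an antibody against the protein itself. The labels give untreated parental KH2 ES cells and wild type MEFs for these libraries, while the study's figure legends also name HA-Macro cells with and without Dox, so that the line and Dox state behind them are uncertain. Each of the pair combines 2 replicates that cannot be separated. With 1 library per condition no difference can be set against a spread between replicates, and no p-values are given. All 95% intervals cover counting error only.

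Retinol and its derivatives are poorly soluble and are carried inside and outside cells by binding proteins. Rbp4 carries retinol in blood plasma, and Rbp3 carries retinoids between the photoreceptors and the pigment epithelium of the eye. Rbp7 and Rbp2 bind retinol inside cells, Rbp2 mainly in the intestine, while Crabp1 and Crabp2 bind retinoic acid inside cells, where Crabp2 passes it to nuclear receptors. Rbp7, Rbp2, Crabp1 and Crabp2 belong, with the fatty acid binding proteins, to the family of intracellular lipid-binding proteins. MacroH2A2 is a histone H2A variant with a large globular domain, and the MacroH2A variants are known for their enrichment on the inactive X chromosome. In the pulse-chase design the libraries were scaled to depth, so a locus that takes up the tagged histone early loses relative signal later, and a locus that takes it up late gains it.

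The 6 genes lie on 5 chromosomes. Rbp7 (ENSMUSG00000028996.3) lies at chr4:148823796-148829087 on the minus strand, and Rbp4 (ENSMUSG00000024990.6) at chr19:38191110-38199811, also on the minus strand. On the plus strand are Rbp2 (ENSMUSG00000032454.3) at chr9:98390956-98410190, Rbp3 (ENSMUSG00000041534.8) at chr14:34767208-34777402, Crabp1 (ENSMUSG00000032291.8) at chr9:54612555-54620917 and Crabp2 (ENSMUSG00000004885.5) at chr3:87752588-87757298. None of the 6 is a close neighbour of another.

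The DNA directly upstream of 3 of the TSSs is shown because Rbp7, Crabp1 and Rbp4 gave the highest ratio, a ratio near 1 and the lowest ratio of 12 to 3 hours among the 6. The sequences are the 250 bases before the TSS, 5′ to 3′ on the strand of the gene, from mm9 (chr4:148829088-148829337, chr9:54612305-54612554 and chr19:38199812-38200061), with every CG dinucleotide in capitals.
Rbp7: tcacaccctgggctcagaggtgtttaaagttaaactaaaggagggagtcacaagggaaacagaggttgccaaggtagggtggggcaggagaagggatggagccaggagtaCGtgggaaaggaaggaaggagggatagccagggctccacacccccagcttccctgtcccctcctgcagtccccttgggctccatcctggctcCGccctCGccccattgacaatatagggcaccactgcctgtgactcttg
Crabp1: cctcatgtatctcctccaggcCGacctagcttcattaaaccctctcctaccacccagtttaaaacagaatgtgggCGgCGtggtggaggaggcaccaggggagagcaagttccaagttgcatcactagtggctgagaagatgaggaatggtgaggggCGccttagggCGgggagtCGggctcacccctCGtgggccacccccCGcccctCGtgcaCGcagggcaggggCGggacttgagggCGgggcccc
Rbp4: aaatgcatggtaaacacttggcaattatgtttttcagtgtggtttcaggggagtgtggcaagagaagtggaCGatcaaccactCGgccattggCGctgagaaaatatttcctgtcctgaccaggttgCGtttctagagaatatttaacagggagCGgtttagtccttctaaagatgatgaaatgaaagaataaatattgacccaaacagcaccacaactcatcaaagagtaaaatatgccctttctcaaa
The Rbp7 stretch held 3 CG dinucleotides at a GC content of 58.4%, that of Crabp1 held 12 at 63.6%, and that of Rbp4 held 5 at 40.8%. Over the 600 bp to either side of the TSS, the window used for counting, the ratio of observed to expected CG was 0.316 at Rbp7, close to the median of 0.320 over 37266 annotated TSSs. It was 0.203 at Rbp2, 0.335 at Rbp3, 0.454 at Crabp2, 0.594 at Crabp1 and 0.773 at Rbp4, so that Rbp4 and Crabp1 lay furthest above the median and Rbp2 below it.

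A set of 4 short motifs was searched on both strands from 250 bp before to 50 bp after each TSS, none of which contains another. GGGCGG, the core of a GC box, was present 1 time at Rbp7, 5 times at Crabp1 and 2 times at Crabp2, and in 30.4% of all promoters. TATAAA, the core of a TATA box, was found 2 times at Rbp2 and 1 time at Crabp2, and in 16.2% of all promoters. CCAAT was found 1 time, at Rbp4 (38.3% of all promoters), and AGGTCA, a motif bound by nuclear receptors, 1 time, at Rbp2 (15.1%). The Rbp3 window held none of the 4. These are matches of letters and were not tested as binding sites.

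Reads had been mapped and extended by the authors, and the deposited intervals were counted here 1 time each, by midpoint, and scaled to 1000000 distinct intervals of the library (RPM). The 11 libraries held from 6448310 to 19869559 distinct intervals, and the median window of a protein-coding TSS held 5 to 19 of them, so that counting intervals at any 1 promoter are wide. The HA-Macro library of ES cells at 3 hours stands apart from the other HA-Macro libraries in 1 respect, with 0.112% of its distinct intervals on chromosome Y against 0.0198% to 0.0244%, although the share was 0.0423% to 0.102% with anti-MacroH2A2 and HA-H3.3. This library is the denominator of the main comparison, and the ES ratios are therefore also given against the 6 hour library. The cell labels could be checked only on chromatin: in HA-H3.3 ES cells at 6 hours the 8 ES cell marker genes had a median of 3.05 RPM against 1.03 for the 8 fibroblast markers. With anti-MacroH2A2 the fibroblast markers had a median of 0.303 RPM in MEFs and 1.23 in ES cells, and the ES cell markers 1.01 and 0.999. The median protein-coding TSS had 0.540 and 0.941. When scaled to that median window, the ratio of MEFs to ES cells had a median of 0.471 over the 5 fibroblast markers tested. It was 2.04 over the 8 ES cell markers and 1.14 over all TSSs. The 5 fibroblast markers reached the minimum of 10 midpoints over both libraries with more midpoints in ES cells than in the deeper MEF library. Col1a2, Col3a1 and Prrx1 did not reach it, with ratios of 0.765, 0.191 and 1.15 when scaled to distinct intervals. The minimum thus favoured low ratios, and the median over the 5 is no check of the labels. In HA-Macro the fibroblast markers had a median of 0.324 in MEFs and 0.603 in ES cells at 3 hours, 0.666 and 0.657 at 6 hours, and 0.277 and 0.509 at 12 hours. The ES cell markers had 1.11 and 1.15, 1.05 and 0.955, and 0.931 and 0.735. The median protein-coding TSS had 0.555 and 0.905, 0.476 and 0.776, and 0.453 and 0.622.

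**Figure D1:**
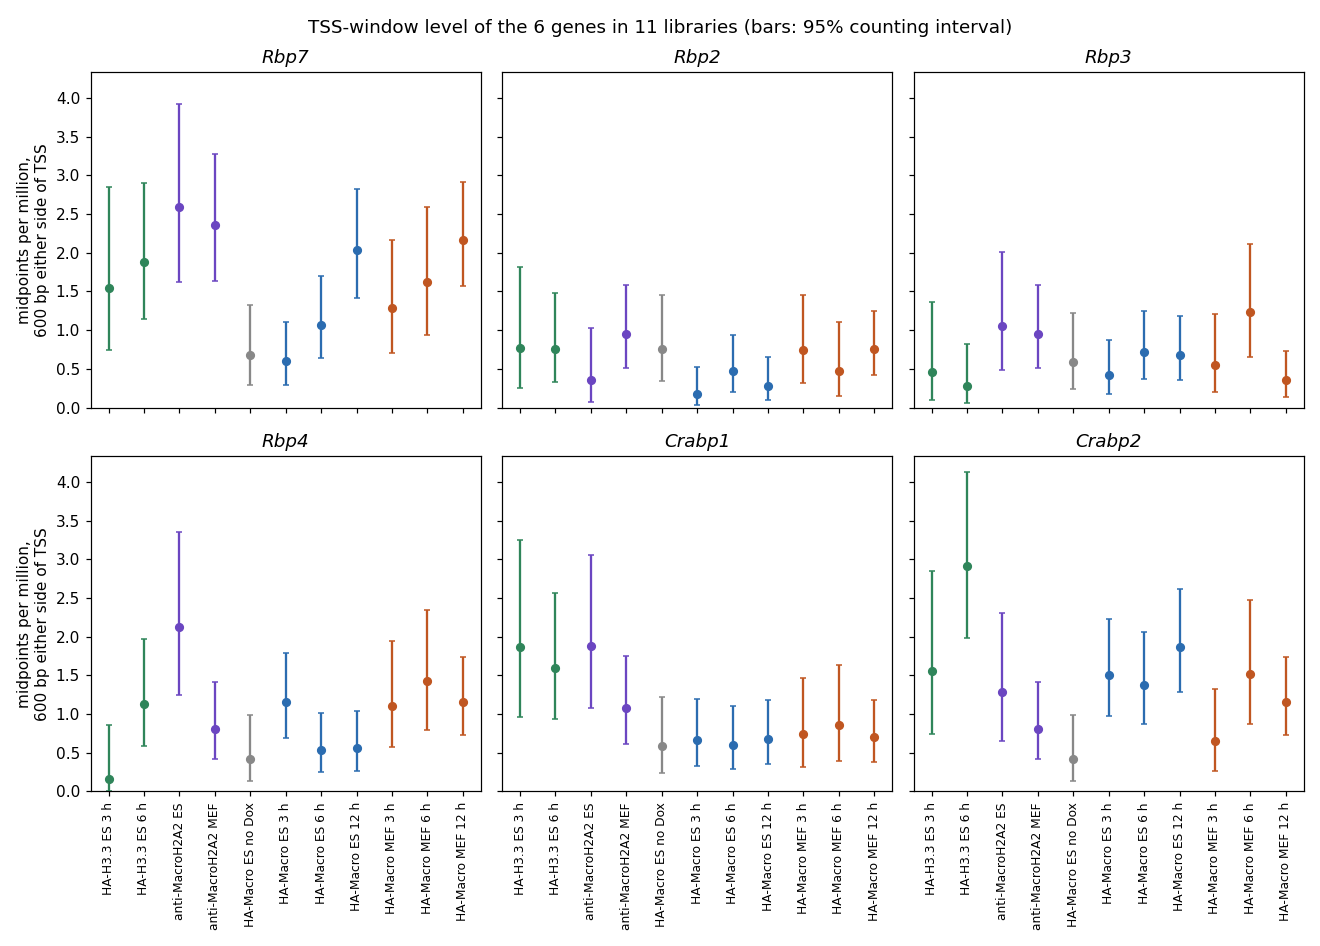
Level at the TSS of each of the 6 genes (RPM, 600 bp to either side, linear axis) in the 11 libraries. Points are 1 library each, bars are exact Poisson 95% intervals and colours mark the kind of library. Rbp7 is highest among the HA-Macro libraries at 12 hours in both cell types (2.03 and 2.16 RPM), and Crabp1 stays between 0.592 and 0.856 in all HA-Macro libraries.

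Rbp7, a cellular retinol-binding protein, had 8 distinct midpoints in its TSS window without Dox, then 10, 18 and 36 at 3, 6 and 12 hours in HA-Macro ES cells. These are levels of 0.677, 0.603, 1.07 and 2.03 RPM. In MEFs the window held 14, 17 and 43 midpoints at the same times, or 1.29, 1.62 and 2.16 RPM. The ES library at 3 hours was thus no higher than the one without Dox, and both 12 hour libraries were the highest of their cell type. With anti-MacroH2A2 the Rbp7 window held 22 midpoints in ES cells (2.59 RPM) and 35 in MEFs (2.36 RPM), and with HA-H3.3 it held 10 at 3 hours (1.55) and 20 at 6 hours (1.88).

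In ES cells the level of Rbp7 at 12 hours was 3.37 times that at 3 hours (95% counting interval 1.64 to 7.62), the value on which the gene was chosen. On this scaling most of the 33419 TSSs tested went the other way, with a median ratio of 0.781. When scaled to the median window of protein-coding TSSs, that median was 1.14. Of the TSSs tested, 98.1% had a lower ratio than Rbp7. Against the 6 hour library the ratio was 1.89 (1.05 to 3.54), which is under 2-fold, and against the library without Dox it was 3.01 (1.37 to 7.49). The counts by stretch of the window divide the same midpoints that chose the gene. They describe where these lay and are no further support for the ratio. Between 600 and 300 bp upstream there were 0 midpoints at 3 hours and 6 at 12 hours, over the next 300 bp 3 and 11, over the first 300 bp of the gene 3 and 8, and beyond that 4 and 11. At the other annotated start of Rbp7 that lies away from this one, 1554 bp into the gene, 4 and 14 midpoints gave a ratio of 3.28 (1.03 to 13.7). These come from the same libraries that chose the gene.

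**Figure D2:**
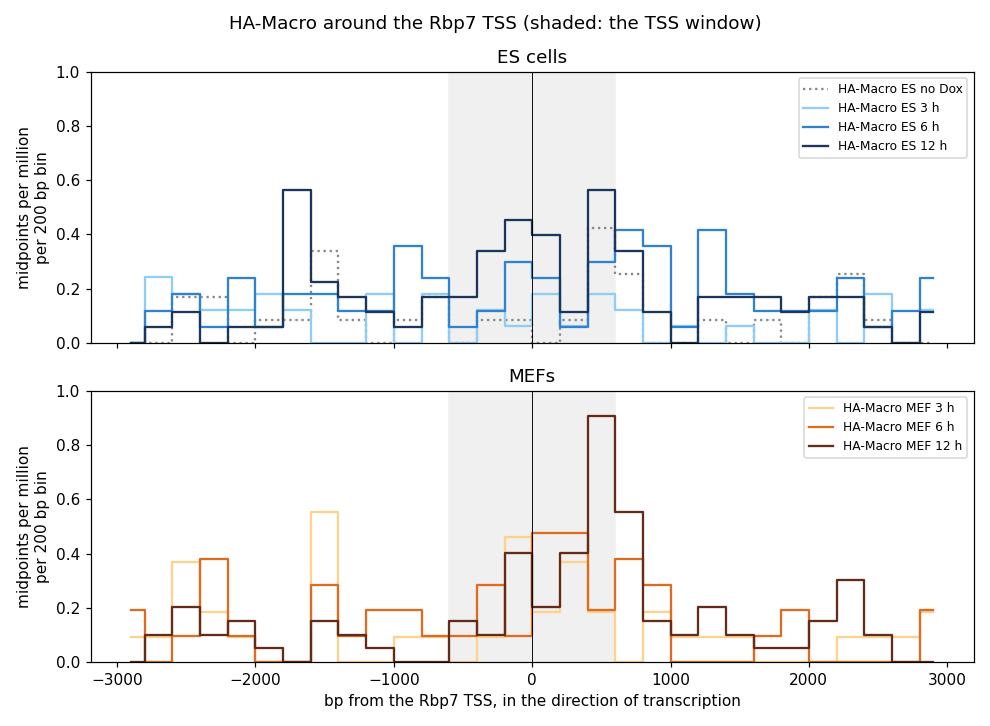
HA-Macro over 3 kb to either side of the Rbp7 TSS in 200 bp bins (RPM, in the direction of transcription), with ES cells above and MEFs below. Lines are 1 library each, the dotted line is the library without Dox and the shaded stretch is the TSS window. In ES cells the bin just upstream of the TSS went from 0.0603 at 3 hours (1 midpoint) to 0.452 at 12 hours (8 midpoints). In MEFs the highest bin, 400 to 600 bp into the gene, reached 0.906 at 12 hours (18 midpoints). Single bins rest on few midpoints.

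The other intracellular retinol-binding gene, Rbp2, had little signal at its TSS. Its window held 9 midpoints without Dox, 3, 8 and 5 at 3, 6 and 12 hours in HA-Macro ES cells, and 8, 5 and 15 in MEFs. Each ES library after Dox was thus below the one without Dox on the scaled level (0.181 to 0.477 against 0.761 RPM). The 8 midpoints at 3 and 12 hours together are below the minimum of 10 set for this comparison, and their ratio of 1.56 has an interval from 0.304 to 10.1. With anti-MacroH2A2 the Rbp2 window held 3 midpoints in ES cells and 14 in MEFs, and with HA-H3.3 it held 5 and 8.

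Rbp3, the retinoid carrier of the eye, had 7 midpoints without Dox, 7, 12 and 12 at 3, 6 and 12 hours in ES cells, and 6, 13 and 7 in MEFs. The ratio of 12 to 3 hours was 1.61 (0.583 to 4.81) in ES cells and 0.635 (0.183 to 2.29) in MEFs, so that neither was distinguishable from 1 at this depth. In the other libraries Rbp3 had 9 midpoints (anti-MacroH2A2 in ES cells), 14 (in MEFs) and 3 in each of the HA-H3.3 libraries, the lowest level of the 6 at 6 hours.

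Rbp4, the plasma carrier of retinol, differed in order from Rbp7. Its window held 5 midpoints without Dox, 19, 9 and 10 at 3, 6 and 12 hours in ES cells, and 12, 15 and 23 in MEFs. The highest ES level was that at 3 hours, 1.15 RPM, against 0.565 at 12 hours. The ratio of 12 to 3 hours in ES cells was 0.493 (0.205 to 1.11), but against the 6 hour library it was 1.05 (0.384 to 2.93), so that the direction depended on the 3 hour library. In MEFs the ratio was 1.04 (0.498 to 2.30). The other annotated start of Rbp4, 510 bp into the gene and sharing much of the window, gave 24 and 13 midpoints and a ratio of 0.507 (0.237 to 1.04).

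Of the genes for retinoic acid-binding proteins, Crabp1 had TSS ratios of 12 to 3 hours that were not distinguishable from 1 at this depth. It had 7 midpoints without Dox, 11, 10 and 12 at 3, 6 and 12 hours in ES cells, and 8, 9 and 14 in MEFs. The ratios of 12 to 3 hours were 1.02 (0.413 to 2.56) in ES cells and 0.952 (0.373 to 2.62) in MEFs, and no HA-Macro ES library was more than 1.15 times the one without Dox. Its levels were higher in the other experiments, with 12 and 17 midpoints for HA-H3.3 (1.86 and 1.60 RPM) and 16 in each anti-MacroH2A2 library (1.88 in ES cells and 1.08 in MEFs).

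Crabp2 had the highest HA-Macro level of the 6 at 3 hours in ES cells. It had 5 midpoints without Dox, 25, 23 and 33 at 3, 6 and 12 hours in ES cells, and 7, 16 and 23 in MEFs. Each ES library after Dox was well above the one without Dox, by 3.56 times (1.34 to 11.9) at 3 hours and 4.41 times (1.71 to 14.5) at 12 hours. Between 3 and 12 hours the ratio was 1.24 (0.713 to 2.17) in ES cells and 1.79 (0.743 to 4.93) in MEFs. With HA-H3.3 the Crabp2 window held 10 and 31 midpoints, the latter the highest HA-H3.3 level of the 6 (2.91 RPM), and with anti-MacroH2A2 it held 11 in ES cells and 12 in MEFs.

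Windows of equal length allow the 6 levels to be ordered within a library. At 12 hours in ES cells Rbp7 (2.03 RPM) and Crabp2 (1.86) were not separable, Crabp2 was 2.75 times (1.38 to 5.85) the next gene, Rbp3, and the neighbours in the order from Rbp3 through Crabp1 and Rbp4 to Rbp2 were not separable. At 3 hours in ES cells the order was Crabp2, Rbp4, Crabp1, Rbp7, Rbp3 and Rbp2, with no step between neighbours larger than counting error. At 12 hours in MEFs Rbp7 was 1.87 times (1.10 to 3.25) Rbp4, and in the anti-MacroH2A2 library of MEFs Rbp7 was 2.19 times (1.18 to 4.23) Crabp1. In these 2 MEF libraries, which its choice did not use, Rbp7 was thus the highest of the 6 by more than counting error. At 3 and 6 hours in MEFs it was also first, but at 1.17 (0.501 to 2.76) and 1.06 (0.505 to 2.25) times the next gene it was not separable from it.

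The TSS ratios of the 6 genes in ES cells were read against all TSSs. Besides Rbp7, which was chosen on this ratio, 4 genes reached the minimum of 10 midpoints over both libraries. Of these 4, 0 were at least 2-fold higher at 12 than at 3 hours, while 8.59% of all TSSs tested were, and 1, Rbp4, was at least 2-fold lower, while 24.6% were. The 5 genes other than Rbp7 had 65 midpoints at 3 hours and 72 at 12 hours together, a ratio of 1.04 (0.732 to 1.47), with Rbp3 at 1.61, Rbp2 at 1.56, Crabp2 at 1.24, Crabp1 at 1.02 and Rbp4 at 0.493. Most of these values lay above the median of all TSSs (0.781), that of Rbp4 below it. Against the 6 hour library none of the 6 was 2-fold apart (5.64% of all TSSs were higher and 10.9% lower). Crabp2 was then at 1.36, Crabp1 at 1.14, Rbp4 at 1.05, Rbp3 at 0.947 and Rbp2 at 0.592, and the 5 gave 1.10 together (0.772 to 1.57).

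This reading depends on the scaling, because the signal at TSSs as a whole was lower at 12 hours. When the libraries were scaled to the median window of protein-coding TSSs, every ES ratio moved up by 0.54 on the log2 scale and the other 5 genes together gave 1.51. Of the 4, 1 was then at least 2-fold higher, Rbp3 at 2.34, and 0 were lower, with Rbp4 at 0.718, while 20.6% of all TSSs were higher and 9.05% lower. Rbp7 was at 4.91. The ES ratio also moved with base composition over all TSSs, with medians between 0.937 and 1.09 in the 5 of 10 equal GC bins with the lowest GC content and between 0.555 and 0.793 in the other 5. The GC bin that holds Rbp7 had a median of 0.656, that of Rbp3 and Rbp4 0.793, that of Rbp2 0.937 and that of Crabp1 and Crabp2 0.586. Divided by the median of their own GC bin, Rbp7 gave 5.14 and the other 5 genes together 1.58, a comparison added after the values had been seen.

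**Figure D3:**
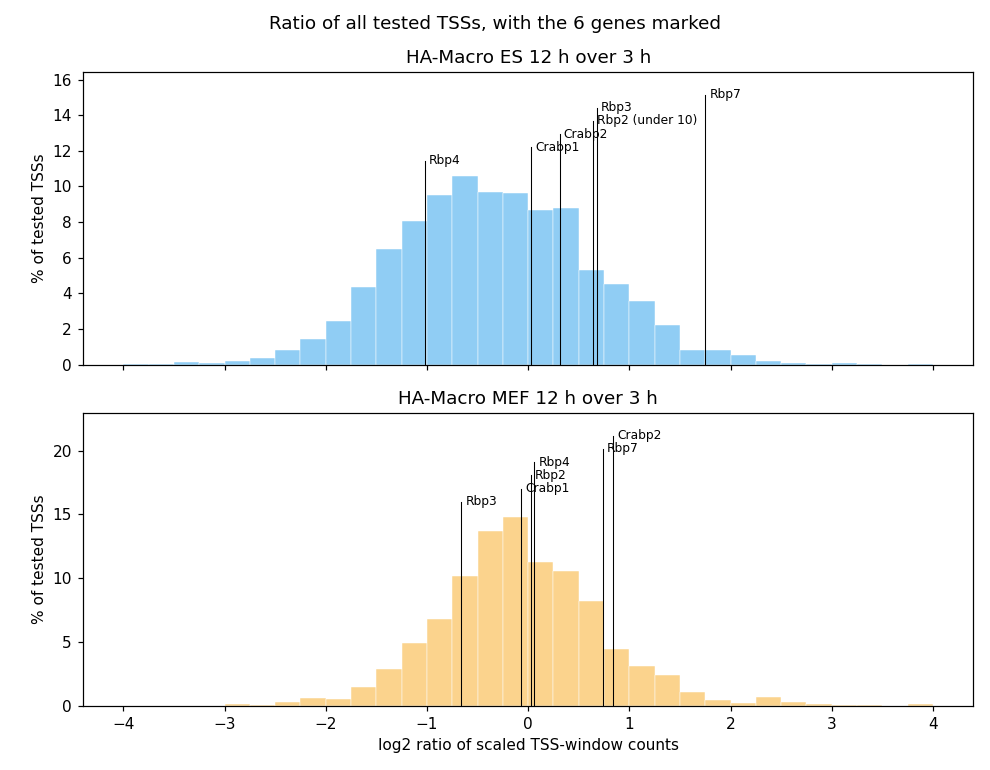
Share of all tested TSSs (in percent) by log2 ratio of the scaled counts at 12 over 3 hours, in HA-Macro ES cells above and MEFs below, with vertical lines at the 6 genes. Rbp7 lies in the upper tail in ES cells, Rbp4 in the lower part, and the other 4 near or above the middle. The Rbp2 line in ES cells rests on 8 midpoints, under the minimum of 10. In MEFs the 6 lie between the ratios of 0.635 (Rbp3) and 1.79 (Crabp2).

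In MEFs, in libraries that the choice of Rbp7 did not use, none of the 6 genes was 2-fold apart between 12 and 3 hours. The ratio of Rbp7 was 1.67 (0.897 to 3.31), higher than at 86.6% of the 26768 TSSs tested, and that of Crabp2 was 1.79. All 6 genes were tested, none was at least 2-fold higher (8.85% of all TSSs) and none at least 2-fold lower (11.1%). The 5 genes other than Rbp7 gave 1.09 together (0.739 to 1.62), against a median of 0.933 over all TSSs. Scaled to the median protein-coding window, Rbp7 (2.05) and Crabp2 (2.19) passed 2-fold, as did 16.0% of all TSSs. No test of the ES ratio of Rbp7 against its MEF ratio is given, since the former chose the gene.

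Total MacroH2A2 was compared between the cell types, a contrast unlike that of 12 with 3 hours. Between MEFs and ES cells, Rbp4 was lower in MEFs with a ratio of 0.382 (0.168 to 0.839) and 18 midpoints in ES cells against 12 in the deeper MEF library. With a window of 300 bp to either side this ratio was 0.860, as the stretch from 300 to 600 bp into the gene held 12 of the midpoints in ES cells and 3 in MEFs. Rbp2 was 2.68 times higher in MEFs, but on 3 and 14 midpoints, with an interval of 0.747 to 14.5. The remaining ratios were 0.912 at Rbp7, 0.892 at Rbp3, 0.574 at Crabp1 and 0.626 at Crabp2, each with an interval that held 1. At least 2-fold higher in MEFs was thus 1 of the 6 genes (7.09% of the 25909 TSSs tested), and at least 2-fold lower was 1 of the 6 (33.6%). Scaled to the median protein-coding window, 1 was higher (22.7% of all TSSs) and 0 lower (9.84%), with Rbp4 at 0.667. The 5 genes other than Rbp7 gave 0.684 together (0.474 to 0.991) against a median of 0.655 over all TSSs, and 1.19 when scaled to the median protein-coding window.

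Over the longer stretches away from the TSS the counts were larger and the intervals narrower. Within the gene, outside the TSS window, Rbp7 had 29 midpoints without Dox and 34, 86 and 63 at 3, 6 and 12 hours in ES cells, so that its highest level inside the gene was at 6 hours (5.13 RPM) and not at 12 hours (3.56). Rbp2 had 83, 141 and 133 midpoints in its gene at 3, 6 and 12 hours, and Crabp1 had 49, 73 and 79. The ratios of 12 to 3 hours were 1.74 (1.13 to 2.72) at Rbp7, 1.50 (1.13 to 2.00) at Rbp2 and 1.51 (1.04 to 2.20) at Crabp1. Those of Rbp3 (1.24), Crabp2 (1.23) and Rbp4 (0.927, or 1.35 when scaled to the median protein-coding window) had intervals that held 1.

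Of the 6 gene bodies, 3 therefore had an interval above 1, that of Rbp7 in the comparison that chose it among them, where 18.2% of the 24606 gene bodies tested did, and 0 had one below 1, where 38.2% did. The 5 genes other than Rbp7 had 355 and 476 midpoints together, a ratio of 1.26 (1.09 to 1.45), against a median of 0.898 over all gene bodies tested. These values rest on the 3 hour library. Against the 6 hour library the same 5 gave 0.993 (0.871 to 1.13), Crabp1 1.02 (0.736 to 1.43), Rbp2 0.893 (0.699 to 1.14) and Rbp7 0.693 (0.493 to 0.971). None of the 6 then had an interval above 1 (5.71% of gene bodies) and 1, Rbp7, had one below it (12.6%). In MEFs the same 5 gene bodies gave 1.07 (0.929 to 1.23).

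Over the 20 kb on both sides of the genes the ES ratio of 12 to 3 hours was 1.64 (1.41 to 1.92) at Crabp1, 1.32 (1.12 to 1.55) at Rbp4 and 1.19 (1.03 to 1.37) at Rbp7, all above 1, although with 50 kb on both sides that of Rbp7 was 0.810. Those of Rbp2 (1.20) and Rbp3 (1.15) had intervals that held 1, and that of Crabp2 was 0.744 (0.653 to 0.846), or 1.08 when scaled to the median protein-coding window. Thus 3 of the 6, Rbp7 included, had an interval above 1 (27.3% of 37273 flanks) and 1 had one below 1 (26.8%), shares that need to be read with the longer stretch and its narrower counting error. The 5 genes other than Rbp7 together gave 1.13 (1.05 to 1.21), where the median of all flanks was 1.02. Against the 6 hour library they gave 1.12 (1.05 to 1.20), and 3 of the 6 had an interval above 1 (6.91% of flanks), namely Crabp1 (1.31), Rbp2 (1.25) and Rbp3 (1.21). Rbp4 (1.03), Rbp7 (1.02) and Crabp2 (0.933) then had intervals that held 1, and 0 had one below 1 (10.1%).

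Crabp1 and Crabp2 differed most in their surroundings. Around Crabp1, whose flanks held 261, 332 and 458 midpoints at 3, 6 and 12 hours in ES cells, both sides were higher at 12 hours (1.61 upstream and 1.68 downstream), and the flank level in MEFs was already at 30.5 RPM at 3 hours and 34.4 at 12 hours, against 15.7 and 25.9 in ES cells. The ES ratio of the Crabp1 flanks was 1.16 with 50 kb on both sides and 10.2 with the level without Dox subtracted. At Crabp2 the lower ratio came from the upstream side, which held 341, 192 and 182 midpoints at 3, 6 and 12 hours (ratio 0.500, 0.415 to 0.600), while the downstream side held 192, 237 and 241 (ratio 1.18, 0.969 to 1.43). The upstream side of Crabp2 holds the TSSs of Rrnad1 and Isg20l2. The count was higher at 3 than at 12 hours in every 5 kb bin of that side, those away from these TSSs included.

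**Figure D4:**
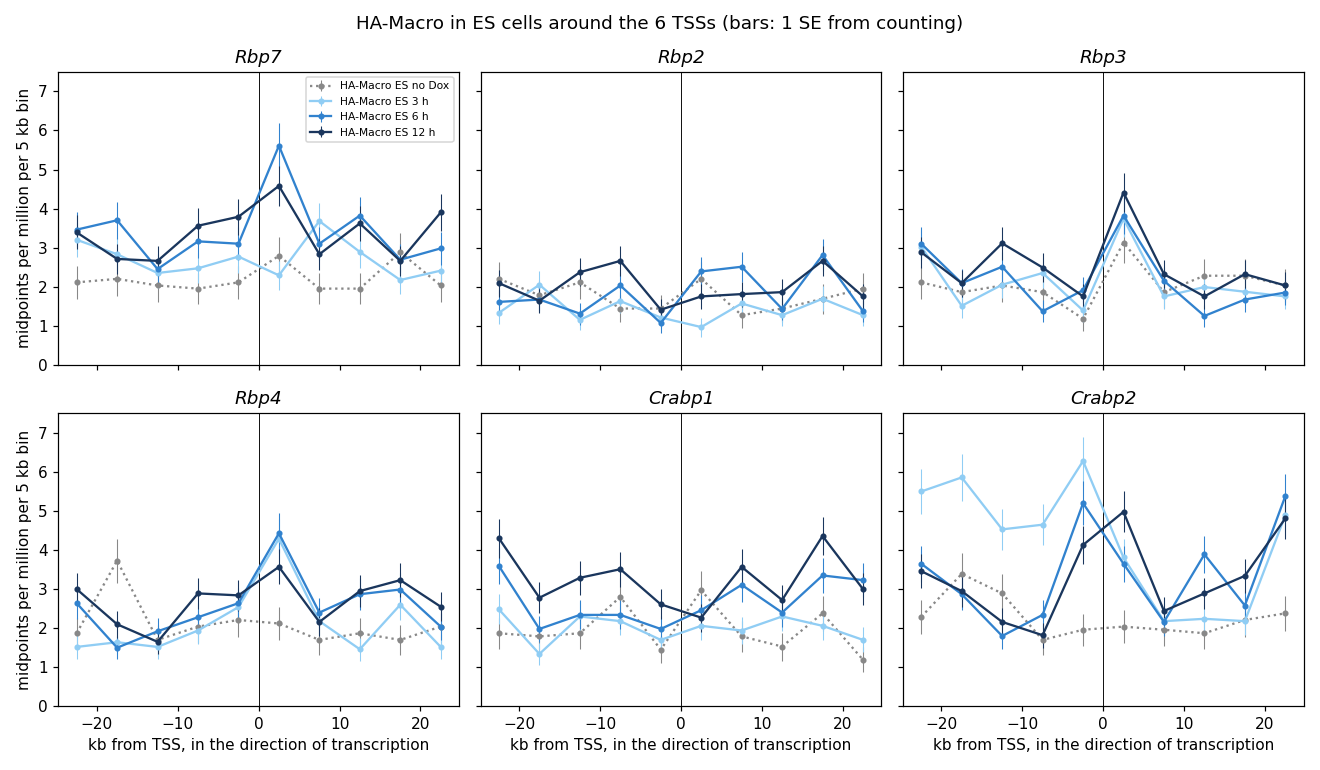
HA-Macro in ES cells over 25 kb to either side of the 6 TSSs in 5 kb bins (RPM, in the direction of transcription). Lines are the library without Dox (dotted) and those at 3, 6 and 12 hours (light to dark), and bars are 1 standard error from counting. At Rbp7 the bin that starts at the TSS went from 2.29 at 3 hours to 5.61 at 6 hours and 4.58 at 12 hours. Upstream of Crabp2 the 3 hour line lies above the others, and at Crabp1 the 12 hour line is above the 3 hour line in every bin.

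The 9 neighbouring TSSs, most of them beside genes other than Rbp7, had ES ratios on both sides of 1. The only neighbour of Rbp7 itself, the pseudogene Gm13072, has its TSS 2351 bp upstream on the other strand and held 14, 11 and 8 midpoints at 3, 6 and 12 hours in ES cells, a ratio of 0.535 (0.195 to 1.37). Of the 9 neighbours, 2 were at least 2-fold higher at 12 hours and 3 at least 2-fold lower, against 8.59% and 24.6% of all TSSs, or 3 and 1 when scaled to the median protein-coding window, against 20.6% and 9.05%. Against the 6 hour library the 9 ran from 0.473 at Rrnad1 to 1.55 at Pde6c, with 0 at least 2-fold higher (5.64%) and 1 at least 2-fold lower (10.9%). Next to Rbp3, Gdf2, a growth factor of the BMP family, had 5, 10 and 13 midpoints and a ratio of 2.44 (0.815 to 8.73), and the zinc finger gene Zfp488 had 6, 8 and 5 (0.781). Next to Rbp4, the fatty acid receptor gene O3far1 had 23, 28 and 16 midpoints (0.652) and Pde6c, a phosphodiesterase of cone photoreceptors, had 12, 11 and 18 (1.41).

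Wdr61, the neighbour of Crabp1, held 3, 11 and 15 midpoints at 3, 6 and 12 hours, a ratio of 4.68 (1.33 to 25.2) that was higher than at 99.3% of TSSs, but against the 6 hour library it was 1.29 (0.554 to 3.11). This value belongs to the outermost of its annotated starts, used by 1 transcript. At the cluster of 5 starts more than 13 kb further into Wdr61 the ratio was 0.410 to 0.437, with 15 or 16 midpoints at 3 hours and 7 at 12 hours. The TSSs around Crabp2 had the lowest ratios. Rrnad1 held 38, 16 and 8 midpoints (0.197, 0.0795 to 0.429) at its outermost start, used by 1 transcript, and its other starts gave 0.268 to 1.11. Isg20l2 held 39, 21 and 17 (0.408, 0.217 to 0.739) and Nes, which encodes the neural progenitor filament nestin, 31, 22 and 16 (0.484, 0.247 to 0.912). Rrnad1 and Isg20l2 start 403 bp apart on opposite strands and share 798 bp of their windows, so that they count many of the same midpoints. With 6 hours as denominator Isg20l2 was at 0.766 and Nes at 0.688, and all 3 intervals held 1. Crabp2, between these genes, was at 1.24.

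**Figure D5:**
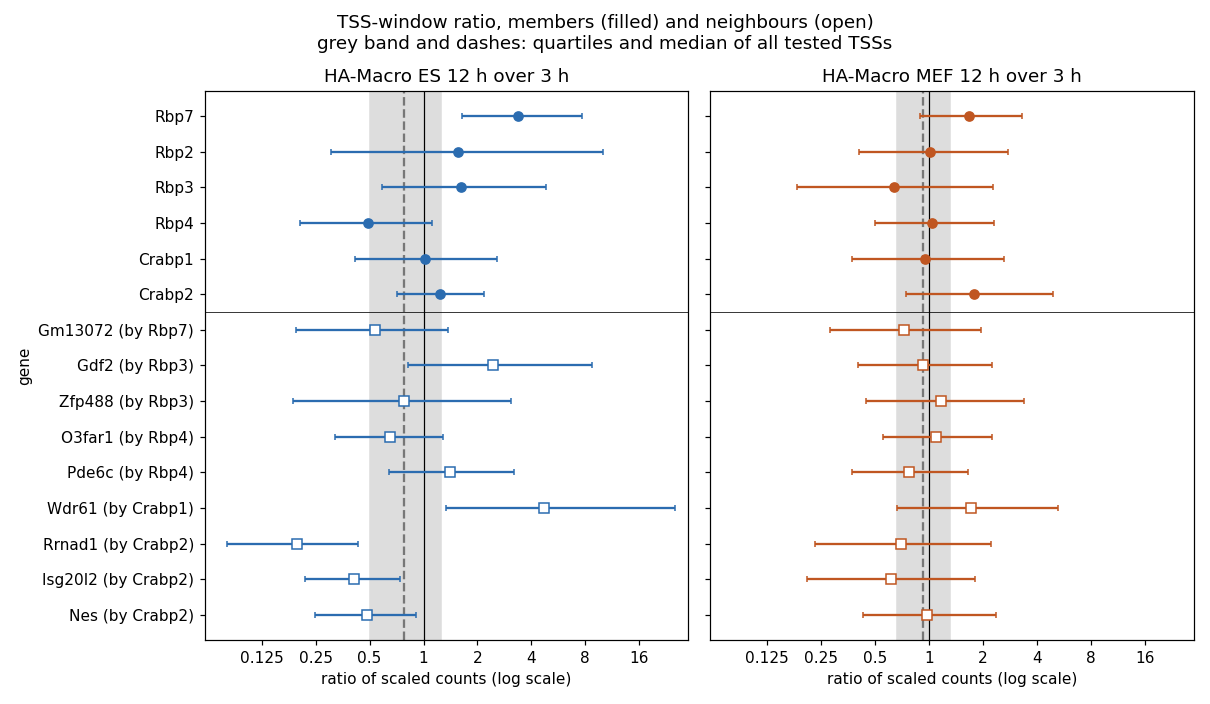
Ratio of the scaled TSS-window counts at 12 over 3 hours (log axis) for the 6 genes (filled circles) and the 9 neighbours (open squares), in HA-Macro ES cells on the left and MEFs on the right. Bars are 95% counting intervals, the grey band and the dashed line are the quartiles and the median of all tested TSSs. In ES cells Rbp7 and Wdr61 lie above 1 with their intervals and the 3 genes around Crabp2 below it, whereas in MEFs every interval includes 1.

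In MEFs none of the 9 neighbours was 2-fold apart between 12 and 3 hours, with ratios from 0.612 at Isg20l2 to 1.72 at Wdr61, where 8.85% of all TSSs were higher and 11.1% lower. Scaled to the median protein-coding window, 1 of the 9 was higher (16.0%). The single interval of the difference between cell types that did not hold 1 among the TSS windows of the 5 other genes and the 9 neighbours was that of Rrnad1, where the ES ratio was 0.282 times the MEF ratio (0.0810 to 0.982). Over the 25464 TSS windows with at least 10 midpoints in each cell type, which leave out Rbp2, such an interval lay below 1 in 5.34% and above 1 in 3.46%. In the 20 kb flanks of the 5 genes it lay above 1 at Crabp1 and below 1 at Crabp2, where over all flanks it did in 18.9% and 21.9%. Scaled to the median protein-coding window these quotients move up, and the intervals of Rrnad1 and of the Crabp2 flanks then hold 1.

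The wider retinoid pathway held genes on both sides, as all TSSs did. Of 26 genes for retinoid handling outside the 6, all of which reached the minimum in ES cells, 4 were at least 2-fold higher at 12 than at 3 hours, 5 at least 2-fold lower and 17 in between, with a median ratio of 0.770. Those counts became 6, 1 and a median of 1.12 when scaled to the median protein-coding window, where all TSSs had 20.6%, 9.05% and 1.14. Among the higher genes were Bcmo1, which splits beta-carotene, with 5 and 20 midpoints (3.75, 1.36 to 12.8), Cyp26b1, a retinoic acid hydroxylase (2.50, 0.929 to 7.80), and Aldh1a1, a retinaldehyde dehydrogenase (2.44, 0.815 to 8.73). Lower were the nuclear receptors Rxra (0.331, 0.156 to 0.655), Rarg (0.432, 0.233 to 0.774) and Rxrb (0.437, 0.269 to 0.696), the retinaldehyde carrier Rlbp1 (0.402, 0.162 to 0.915) and the retinal reductase Dhrs3 (0.426, 0.116 to 1.33). The higher and lower genes are 15.4% and 19.2% of the list, beside 8.59% and 24.6% of all TSSs. The median of 0.770 is close to the 0.781 of all TSSs. These counts are therefore not read as a trait of the pathway. Set against 6 hours, 1 of the 26 was higher (5.64%), Aldh1a1 at 4.10 (1.13 to 22.4). Then 2 were lower (10.9%), Dhrs3 and Rdh11, each at 0.394 (0.109 to 1.20). Bcmo1 was at 1.89 (0.846 to 4.53) and Cyp26b1 at 1.68 (0.700 to 4.32). Rarg was at 0.588 (0.307 to 1.09), Rxra at 0.598 (0.265 to 1.30), Rlbp1 at 0.775 (0.284 to 2.06) and Rxrb at 0.982 (0.558 to 1.73).

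Of the 10 fatty acid binding protein genes, which encode proteins of the same family as Rbp7, 3 were at least 2-fold higher in ES cells, 3 at least 2-fold lower and 4 in between, with a median of 1.07, where 8.59% of all TSSs were higher and 24.6% lower. When scaled to the median protein-coding window 4 were higher and 0 lower, where 20.6% and 9.05% of all TSSs were. Fabp1 had 8 midpoints at 3 hours and 44 at 12 hours, a ratio of 5.15 (2.40 to 12.7), larger than that of Rbp7 and 1.81 (1.07 to 3.14) against the 6 hour library, while Fabp9 (2.25) and Fabp6 (2.19) had intervals that held 1. Fabp3 was lower with 37 and 16 midpoints (0.405, 0.210 to 0.746), as were Pmp2 (0.402) and Fabp5 (0.493) with intervals that held 1. Set against 6 hours, 1 of the 9 then tested was higher (5.64%), Fabp4 at 3.79 on 2 and 8 midpoints (0.756 to 36.6), and 0 were lower (10.9%). In MEFs, 2 of 23 tested retinoid handling genes and 0 of 7 tested fatty acid binding protein genes were at least 2-fold higher (8.85% of all TSSs), and 1 and 0 were lower (11.1%). With anti-MacroH2A2, 1 of 24 and 1 of 8 were at least 2-fold higher in MEFs than in ES cells (7.09% of all TSSs), and 6 and 1 were lower (33.6%). The balance turned when scaled to the median protein-coding window, with 9 and 3 higher (22.7% of all TSSs) and 2 and 1 lower (9.84%).

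Across the 11 libraries, the levels of the other 5 genes followed those of Rbp7 loosely. Pearson's r of the TSS-window level on the log2 scale, after adding 1 read, was 0.567 for Crabp1, 0.332 for Crabp2, 0.318 for Rbp2, 0.292 for Rbp4 and 0.259 for Rbp3. The points share antibody, cell type and depth, and 93.1% of the 12585 protein-coding genes compared, those with a mean of at least 10 midpoints and away from Rbp7, had a lower r than Crabp1 and 76.8% a lower one than Rbp4. Rbp2 and Rbp3, with means of 7.55 and 8.45 midpoints, lie under that minimum, and no rank is given for them. The genes most like Rbp7 by this measure were Gm106 (0.906), 1700001K19Rik (0.894), the histone deacetylase gene Hdac7 (0.893), Scrt1 (0.882) and Pbld1 (0.873). Their ES counts at 3 and 12 hours, which are part of the likeness, were 12 and 23, 9 and 22, 7 and 19, 16 and 37, and 9 and 15.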

How the data were processed

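Each line of the deposited files gives the outer coordinates of a mapped and extended read, with no strand or count. Per the labels and methods, the authors collapsed identical reads, aligned them to mm9 with Bowtie 1.0 allowing 1 mismatch, placed reads with several locations at random and extended them. Measured on the files, this length is 150 bp for HA-Macro under anti-HA and 400 bp for HA-H3.3 and anti-MacroH2A2. Distinct intervals were counted by midpoint in the TSS window (600 bp to either side of the outermost start of a gene), in the gene outside it and in 20 kb flanks, and scaled to RPM. Levels carry exact Poisson and ratios exact conditional binomial (Clopper-Pearson) 95% intervals, computed with scipy 1.17.1. The ratio intervals were tested on simulated Poisson counts, under which they hold by construction. That checks the computation only, and not spread between libraries. The quotients of an ES ratio over a MEF ratio carry an approximate log-normal 95% counting interval instead. That interval is least exact at low counts and was not tested on simulated counts. The background is all annotated features with at least 10 midpoints over both libraries. The 6 genes, the lists and the comparisons were chosen with earlier results of these data known. Named besides the 6 were genes with a TSS within 20 kb of them, listed genes at least 2-fold apart in ES cells, and the 5 genes most correlated with Rbp7, except 1 listed gene that is counted but not reported here. The alternatives were other scalings, windows, flanks, minimum counts and ways of counting, subtraction of the library without Dox, and the 6 hour library for the 3 hour one. Sequences were read from mm9.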

Additional observations from a re-analysis of the deposited data

Results flagged for a closer look

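The ratio of 12 to 3 hours was set between ES cells and MEFs for 19 stretches, namely the TSS windows and flanks of the 5 genes other than Rbp7 and the TSS windows of the 9 neighbours. In 3 of them the approximate (log-normal) 95% counting interval of the difference did not hold 1, and none was corrected for the number compared. Over all TSS windows tested such an interval lay below 1 in 5.34% and above 1 in 3.46%, and over all flanks in 21.9% and 18.9%. The flanks of Crabp1 had a ratio of 1.64 in ES cells and 1.13 in MEFs, a quotient of 1.46 (1.19 to 1.78). The flanks of Crabp2 had 0.744 in ES cells and 0.966 in MEFs, a quotient of 0.770 (0.627 to 0.946). The TSS window of Rrnad1, which lies in the upstream flank of Crabp2, had 0.197 in ES cells and 0.700 in MEFs, a quotient of 0.282 (0.0810 to 0.982). The ES value is that of its outermost start, used by 1 transcript, and its other annotated starts gave 0.268 to 1.11 in ES cells. Each rests on 1 library per condition, and the 3 hour ES library enters all 3. With the 6 hour library in that place the ES ratios were 1.31, 0.933 and 0.473. The quotients also depend on the scaling. Scaling to the median protein-coding window raises ES ratios by 0.54 and MEF ratios by 0.29 on the log2 scale. Each quotient then moves up, and the upper limits of 0.946 (Crabp2 flanks) and 0.982 (Rrnad1) pass 1.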

How the results depend on the processing

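The ES ratios of the 6 genes (TSS, gene body and flanks) and their TSS ratios in MEFs and with anti-MacroH2A2, with the shares over all TSSs, were recomputed under other settings. This gave 372 values, of which 337 lay within the 95% counting interval of the reported ratio (or, for the shares of all TSSs, within 1.5 times), 28 moved beyond it and 7 turned a called direction. Lying within the interval is a weak requirement where few midpoints were counted. At the TSS of Rbp2 in ES cells the interval of 0.304 to 10.1 held both the reported 1.56 and the 0.592 against 6 hours. Only a called direction could be counted as turned. The TSS ratio of Rbp7 in ES cells was above 1 in 13 of 13 alternatives (1.89 to 5.14). Rbp7 was chosen because this ratio was high, and each alternative kept the later library of that comparison. The tally therefore cannot serve as an independent check of the ratio. It was under 2 in 1 alternative, with the 6 hour library as denominator. That library also turned the TSS ratio of Rbp4 from 0.493 to 1.05 and, added after the data were seen, the gene bodies of Rbp7 to 0.693, of Rbp2 to 0.893 and of the other 5 genes together to 0.993. Flanks of 50 kb gave 0.810 for Rbp7 and 1.05 for the other 5 genes together. Scaling to the median protein-coding TSS turned the flanks of Crabp2 to 1.08 and the anti-MacroH2A2 ratio of the other 5 genes to 1.19, and moved their ES ratios to 1.51 (TSS), 1.83 (gene bodies) and 1.64 (flanks). Division by the median of the same GC bin, added after the data were seen, gave 1.58 for their TSSs, and leaving out Crabp2, also added then, gave 0.913. Subtracting the level without Dox gave 3.39 for their gene bodies and 1.96 for their flanks. By gene, the flanks gave 10.2 at Crabp1, 1.95 at Rbp7 and 0.416 at Crabp2. In 11 cases the level at 1 or both times fell to 0 or below, so that no ratio could be formed. Among these are the TSS of Rbp7 in ES cells, the flanks of Rbp2, Rbp3 and Rbp4, and the TSSs of Rbp2 and Rbp3 in MEFs. The only library without Dox is from ES cells, and its level was also subtracted from the MEF libraries. A minimum of 20 midpoints lowered the share of TSSs at least 2-fold higher in ES cells to 4.95%. The cause was not tested. No paired analysis was possible because each condition has 1 library, and for the same reason no replicate could be left out.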

Other observations

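The levels of the HA-H3.3 libraries at 6 and 3 hours, whose ratio is not described above, were set side by side. Over all TSSs tested the median of this ratio was 1.48, with quartiles of 1.06 and 2.00. The TSS window of Rbp4 held 1 midpoint at 3 hours and 12 at 6 hours, a ratio of 7.27 (1.08 to 311). The gene body of Crabp2 gave 1.93 (1.23 to 3.13), the flanks of Rbp7 1.57 (1.27 to 1.95) and those of Rbp3 0.684 (0.524 to 0.895). For total MacroH2A2, the gene body of Rbp3 had a ratio of MEFs to ES cells of 0.588 (0.453 to 0.763) and the flanks of Crabp2 0.605 (0.501 to 0.730). Each of these was picked among the 6 genes after its value was seen and rests on 1 library per condition. No median over all gene bodies or flanks is given for either comparison. For total MacroH2A2 the median ratio of MEFs to ES cells over all TSSs was 0.655. Scaling to the median protein-coding window moves every such ratio up by 0.80 on the log2 scale, so the 2 low values are not read as particular to these genes.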
